A study of Mus musculus with 30 samples.

Results

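The 10 genes described here code for the main proteins of the basement membrane: the laminin chains Lama1, Lama5, Lamb1 and Lamc1, the type IV collagen chains Col4a1 and Col4a2, the nidogens Nid1 and Nid2, the perlecan core protein Hspg2 and the collagen-binding protein Sparc. They were chosen by name for these roles, as the probe sets that name 1 gene only. Each of the 10 had exactly 1 such probe set, and together they are 10 of the 19938 genes tested. All 10 stayed in the tests from which dim genes were left out. That filter used a gene's mean over many arrays, so a gene that was dim in some groups could stay.

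The series set mouse embryonic stem (ES) cells and 2 clones of induced pluripotent stem (iPS) cells, ST5 and ST8, against each other and against endoderm of the embryo. Definitive endoderm is the germ layer that later forms the lining of the gut and lung. All cultured cells carried the C57BL/6x129SvJae background, and each iPS line is a single clone. Undifferentiated cells were sorted as Sox2 bright at day 0, and endoderm made in culture was sorted as Kit positive and Sox2 dim at day 5. These 6 groups of 3 arrays were labelled without amplification (18 arrays). A further 12 arrays were labelled after amplification. They cover ES cells of both days and 2 fractions of E8.25 embryos of Swiss Webster mice: foregut cells, positive for the endoderm antibody ENDM1 and for Epcam with low side scatter, and Epcam-positive cells without ENDM1. Embryo RNA came from a different extraction kit than that of the cultured cells. The labels call the 3 arrays of each group biological replicates and give no batch.

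A basement membrane is the thin sheet of matrix under every epithelium. Laminins are trimers of an alpha, a beta and a gamma chain that polymerise at the cell surface; Lamb1 and Lamc1 pair with either Lama1, the main alpha chain of the early embryo, or Lama5. Type IV collagen, built from Col4a1 and Col4a2, forms the second network. Nidogens and perlecan tie the networks to each other, and Sparc binds the collagen. In the mouse conceptus the parietal endoderm of the yolk sac secretes these proteins in large amounts, and fibroblasts, which are used as feeders for stem cells, also make several of them.

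Levels below are log2 expression from the RMA procedure, in which 1 unit is a doubling, and differences are log2 differences with the standard error (SE) of a limma fit to all arrays of a labelling. A gene was called where its p, adjusted over the 19938 genes by the Benjamini-Hochberg method, was under 0.05. Apart from the dim-gene cut, a level is set only against the same probe set on other arrays of the same labelling. A gene was dim where its mean over all arrays of a labelling was under the median gene mean. That cut was 5.96 unamplified and 5.89 amplified. Day 5 means of Nid1 (ES cells 5.82, ST5 5.44, ST8 5.92) and Lama1 (ES cells 5.94, ST8 5.73) lay under it. On the amplified arrays the ES day 5 means of Lama1 (5.67), Nid1 (5.68) and Col4a2 (5.77) did too. The ES day 0 mean of Col4a2 (5.82) and the foregut mean of Nid1 (5.74) did as well. Arrays carry no read depth, and 3 arrays a group limit the precision. Whether the arrays of 2 groups overlap is given for single genes as a description only. It was not set against the share of all genes without overlap. The samples are bulk RNA of sorted cells, so fewer cells of a type and less RNA per cell cannot be told apart.

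The day 5 arrays were not alike. ES replicate 1 and ST8 replicate 2 read 9.35 and 9.30 for Sox17, an endoderm transcription factor, and the ST5 arrays read 8.69 to 8.99, while the other 4 day 5 arrays read 7.15 to 7.40. On the same 5 arrays Pou5f1, a pluripotency factor, read 7.25 to 8.41, against 9.61 to 10.48 on the other 4. Several basement membrane genes followed this split, so the calls that rest on these arrays are given with and without them; they were singled out after the values were seen. Day 0 arrays of all 3 lines also carried fibroblast markers: the summed linear level of 18 such genes was 3940 to 5065 at day 0 and 1323 to 2482 at day 5, and Col1a1, a fibroblast collagen, read 9.37 to 9.92 against 6.43 to 7.04. Of the 18, 13 fell and 1 rose in ES cells, beside 19.7% and 18.9% of all genes. In ST5 15 fell and 0 rose (24.8% and 23.2% of all genes), and in ST8 14 fell and 0 rose (19.5% and 21%). None of the 10 basement membrane genes is in that list, and its part in the day 5 results was not tested.

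From day 0 to day 5, Nid1, Nid2 and Hspg2 fell in all 3 lines, Lama5 and Lamb1 rose in all 3, and Lama1 fell in ES cells and ST8. In ES cells 2 of the 10 genes rose and 4 fell, where 18.9% of all genes rose and 19.7% fell. For ST5 the counts were 5 and 3, against 23.2% and 24.8% of all genes, and for ST8 3 and 4, against 21% and 19.5%. The median difference of the 10 was -0.05 (ES cells), 0.38 (ST5) and 0.07 (ST8), beside medians over all genes of 0.02, -0.04 and -0.01.

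**Figure D1:**
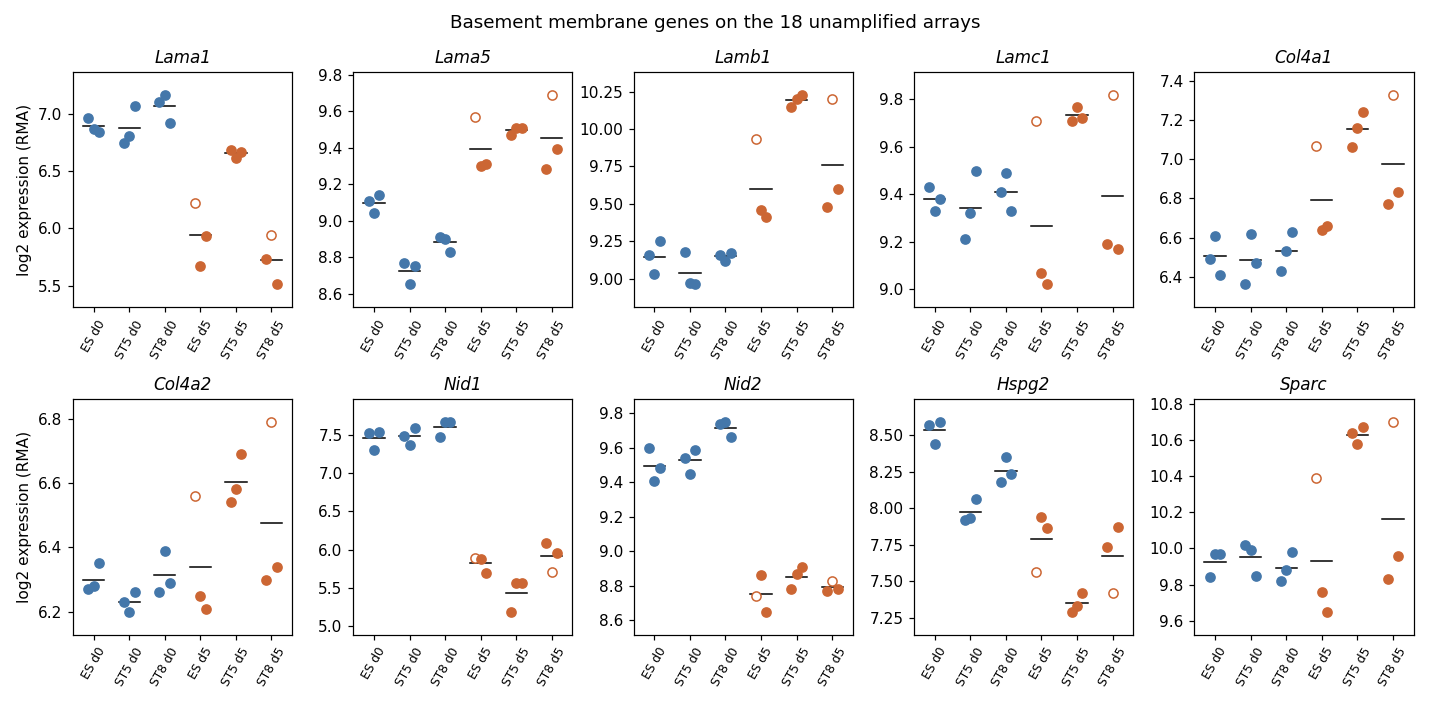
Levels of the 10 genes (log2 expression, RMA) on the 18 unamplified arrays, 1 panel a gene with its own axis, points for arrays and lines for group means; open circles mark ES day 5 replicate 1 and ST8 day 5 replicate 2. In the panels of Lamb1, Lamc1, Col4a1, Col4a2 and Sparc both open circles lie nearer to the ST5 day 5 arrays than to the other 4. In those of Lama1, Nid1, Nid2 and Hspg2 every day 5 point lies below the day 0 points of its line.

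Lama1, the laminin alpha chain of the early embryo, took a different course in the 2 clones. In ES cells it read 6.97, 6.87 and 6.84 at day 0 and 6.22, 5.67 and 5.93 at day 5, a fall of 1.93-fold (log2 difference -0.95 ± 0.13 SE, n = 3 and 3, adjusted p = 1.66e-05). In ST8 the day 0 arrays read 7.11, 7.17 and 6.92 and the day 5 arrays 5.73, 5.94 and 5.51, a fall of 2.53-fold (-1.34 ± 0.13, adjusted p = 3.86e-07). In ST5 Lama1 read 6.75, 6.81 and 7.07 at day 0 and 6.69, 6.62 and 6.67 at day 5. Its difference there of -0.21 ± 0.13 did not pass (adjusted p = 0.198). In all 3 lines every day 5 array lay below every day 0 array of the same line. The response of ST8 minus that of ST5 was -1.13 ± 0.18, and this test of the difference itself passed (adjusted p = 0.0106). It was -1.24 without ST8 day 5 replicate 2 (adjusted p = 2.67e-04). The array with high Sox17 was the highest for Lama1 in either day 5 group. Without it the difference was -1.09 in ES cells (adjusted p = 4.47e-06) and -1.45 in ST8 (adjusted p = 2.88e-07).

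Lama5, the alpha chain that is widespread in later epithelia, went up. The ST5 arrays read 8.77, 8.65 and 8.75 at day 0 and 9.47, 9.51 and 9.51 at day 5 (0.77 ± 0.09, 1.71-fold, adjusted p = 2.9e-06). In ST8 it rose from 8.91, 8.90 and 8.83 to 9.28, 9.69 and 9.39 (0.57 ± 0.09, adjusted p = 8.99e-05), and by 0.46 without replicate 2 of day 5 (adjusted p = 2.5e-04). ES cells showed the smallest rise, from 9.11, 9.04 and 9.14 to 9.57, 9.30 and 9.31 (0.30 ± 0.09, adjusted p = 0.0167). In all 3 lines the lowest day 5 array was above the highest day 0 array, yet the ES rise was 0.21 without ES day 5 replicate 1 and no longer passed (adjusted p = 0.0958); it was 0.27 without ES day 0 replicate 2 (adjusted p = 0.0616).

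Lamb1, the beta chain shared by both trimers, rose most in ST5. Its ST5 arrays read 9.18, 8.97 and 8.96 at day 0 and 10.15, 10.20 and 10.23 at day 5, a 2.23-fold rise (1.16 ± 0.15, adjusted p = 8.79e-06). In ST8 it went from 9.16, 9.12 and 9.17 to 9.48, 10.20 and 9.60 (0.61 ± 0.15, adjusted p = 0.0041), and in ES cells from 9.16, 9.03 and 9.25 to 9.93, 9.46 and 9.41 (0.45 ± 0.15, adjusted p = 0.0275). In both lines 1 day 5 array stood well above the other 2: replicate 2 of ST8 and replicate 1 of ES. Without that array the ST8 rise was 0.39 (adjusted p = 0.0174) and the ES rise 0.29, which did not pass (adjusted p = 0.151). Leaving out ES day 0 replicate 1 (0.46, adjusted p = 0.0602) or replicate 2 (0.40, adjusted p = 0.0976) also took the ES call away.

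Lamc1, the gamma chain of the same trimers, did not pass in any line. It read 9.43, 9.33 and 9.38 in ES cells at day 0 and 9.71, 9.07 and 9.02 at day 5, so that 1 day 5 array lay above all day 0 arrays and 2 lay below them (-0.12 ± 0.17, adjusted p = 0.649). ST8 was split in the same way, with 9.41, 9.49 and 9.33 at day 0 and 9.19, 9.82 and 9.17 at day 5 (-0.02 ± 0.17, adjusted p = 0.946). The ST5 arrays were uniform, 9.21, 9.32 and 9.50 at day 0 and 9.71, 9.77 and 9.72 at day 5, and gave 0.39 ± 0.17 (adjusted p = 0.0707). With both split arrays left out, the differences of Lamc1 in ES cells and ST8 were -0.34 (adjusted p = 0.00206) and -0.23 (adjusted p = 0.0227). Those arrays were singled out after the values were seen and were the day 5 arrays above day 0. Leaving them out therefore lowers the difference by choice of arrays.

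Col4a1 and Col4a2, the 2 chains of the type IV collagen of nearly all basement membranes, moved together over the arrays. Col4a1 rose 1.6-fold in ST5, from 6.36, 6.62 and 6.47 to 7.06, 7.16 and 7.24 (0.68 ± 0.14, adjusted p = 5.13e-04), and Col4a2 from 6.23, 6.20 and 6.26 to 6.54, 6.58 and 6.69 (0.38 ± 0.11, adjusted p = 0.00976). In ST8 Col4a1 went from 6.43, 6.53 and 6.63 to 6.77, 7.33 and 6.83 (0.44 ± 0.14, adjusted p = 0.0147). The ST8 call of Col4a1 rested on replicate 2 of day 5, without which the difference was 0.27 (adjusted p = 0.0858). It was also lost without ST8 day 0 replicate 1 (0.40, adjusted p = 0.0601), after a further quantile normalization (0.33, adjusted p = 0.0742) and when only the ST8 arrays were fitted (0.44, adjusted p = 0.0633).

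Col4a2 in ST8, with 6.26, 6.39 and 6.29 at day 0 and 6.30, 6.79 and 6.34 at day 5, did not pass (0.17 ± 0.11, adjusted p = 0.273). In ES cells neither chain passed: Col4a1 read 6.49, 6.61 and 6.41 and then 7.07, 6.64 and 6.66 (0.28 ± 0.14, adjusted p = 0.117). Col4a2 read 6.27, 6.28 and 6.35 and then 6.56, 6.25 and 6.21 (0.04 ± 0.11, adjusted p = 0.824). In both chains it was again ES replicate 1 that stood above the other day 5 arrays. Without it the ES difference was 0.15 for Col4a1 (adjusted p = 0.446) and -0.07 for Col4a2 (adjusted p = 0.688), and without ST8 day 5 replicate 2 that of Col4a2 in ST8 was 0.01 (adjusted p = 0.954). Over the 18 unamplified arrays the 2 chains had a Pearson r of 0.89, and over the 12 amplified arrays of 0.98; these arrays share lines, days and labelling.

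The 2 collagen genes lie head to head on mouse chromosome 8 and run in opposite directions. In the RefSeq promoter windows (build GRCm38.p6) the start of Col4a2 on the plus strand is at 11312805 and that of Col4a1 on the minus strand at 11312826, so the windows of both genes overlap and the stretch between the starts is 22 bases long. It is shown because the 2 starts share it; capitals mark the first base of each transcript, Col4a2 on the left and Col4a1, read from the other strand, on the right, at chr8:11312805-11312826 on the plus strand.
Col4a2 to Col4a1 starts: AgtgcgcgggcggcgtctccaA

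Nid1 and Nid2, the linker proteins between laminin and collagen, fell in every line. Nid1 read 7.52, 7.30 and 7.54 in ES cells at day 0 and 5.89, 5.88 and 5.70 at day 5, a 3.1-fold fall (-1.63 ± 0.12, adjusted p = 1.54e-08). In ST5 it fell 4.12-fold, from 7.49, 7.37 and 7.59 to 5.19, 5.56 and 5.57 (-2.04 ± 0.12, adjusted p = 8.61e-10), and in ST8 3.22-fold, from 7.47, 7.67 and 7.67 to 6.09, 5.71 and 5.96 (-1.69 ± 0.12, adjusted p = 9.87e-09). No day 5 array came within 1 log2 unit of a day 0 array of its line. Nid2 fell from 9.60, 9.41 and 9.48 to 8.74, 8.86 and 8.65 in ES cells (-0.75 ± 0.07, adjusted p = 3.27e-07). In ST5 it fell from 9.54, 9.45 and 9.59 to 8.78, 8.87 and 8.91 (-0.67 ± 0.07, adjusted p = 6.16e-07). In ST8 it fell from 9.74, 9.75 and 9.66 to 8.77, 8.83 and 8.78 (-0.92 ± 0.07, adjusted p = 2.82e-08). The day 5 arrays of Nid2 were close to each other in every line, ES replicate 1 and ST8 replicate 2 included. Col1a1, Col1a2 and Dcn, defining fibroblast markers, fell over the same days, Col1a2 from levels of 9.43 to 10.24 at day 0 to levels of 6.69 to 7.23 at day 5; their part in the nidogen falls was not tested.

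The windows just upstream of Lamb1, which rose, and of Nid1, which fell, are shown to set the 2 directions side by side; capitals mark the letters CCAAT or GGGCGG on either strand. The Lamb1 stretch is chr12:31265043-31265292 and the Nid1 stretch chr13:13437352-13437601, both on the plus strand of GRCm38.p6 and both ending at the base before the RefSeq start.
Lamb1 upstream: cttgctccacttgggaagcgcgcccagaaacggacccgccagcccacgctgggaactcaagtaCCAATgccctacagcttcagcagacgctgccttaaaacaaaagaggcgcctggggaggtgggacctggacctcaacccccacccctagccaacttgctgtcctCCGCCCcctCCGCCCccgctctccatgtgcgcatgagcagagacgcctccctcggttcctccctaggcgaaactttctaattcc
Nid1 upstream: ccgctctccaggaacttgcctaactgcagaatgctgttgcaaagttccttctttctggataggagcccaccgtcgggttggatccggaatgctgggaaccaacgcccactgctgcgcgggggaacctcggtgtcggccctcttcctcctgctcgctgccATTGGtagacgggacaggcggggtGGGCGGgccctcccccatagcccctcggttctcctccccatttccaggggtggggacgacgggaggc
The 2 windows hold the same 2 motifs, Lamb1 with 1 match of CCAAT and 2 of GGGCGG and Nid1 with 1 of each. RefSeq windows of 300 bases (250 of them upstream) were matched by symbol for 7 of the 10 genes: Lama5, Lamb1, Col4a1, Col4a2, Nid1, Hspg2 and Sparc, while Lama1, Lamc1 and Nid2 are named only. Searched on both strands, CCAAT was in 4 of the 7 and in 37.4% of all 32851 windows, and GGGCGG was in 6 of the 7 and in 35.7% of all. The motif GATAA was in none of the 7 windows and in 25.4% of all. ACAAT was likewise in none of them and in 31% of all, and for TATAAA the share was 13.6%, again with none of the 7. A match is a description of letters and not of a bound site, and the windows of Col4a1 and Col4a2 share bases.

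Hspg2, the core protein of the heparan sulphate proteoglycan perlecan, fell in all 3 lines. In ES cells it read 8.57, 8.44 and 8.59 at day 0 and 7.56, 7.94 and 7.86 at day 5, a 1.67-fold fall (-0.74 ± 0.11, adjusted p = 3.92e-05). ST5 went from 7.92, 7.93 and 8.06 to 7.29, 7.33 and 7.42 (-0.62 ± 0.11, adjusted p = 1.44e-04) and ST8 from 8.18, 8.35 and 8.23 to 7.73, 7.42 and 7.87 (-0.58 ± 0.11, adjusted p = 3.74e-04). Here the 2 split arrays lay lowest in their groups, ES replicate 1 at 7.56 and ST8 replicate 2 at 7.42. Without ES replicate 1 the ES fall was -0.63 (adjusted p = 2.06e-04), and without ST8 replicate 2 the ST8 fall was -0.45 (adjusted p = 0.00167).

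Sparc, which binds type IV collagen and is secreted by parietal endoderm, passed in ST5 and in neither other line. The ST5 arrays read 10.02, 9.99 and 9.85 at day 0 and 10.64, 10.58 and 10.67 at day 5 (0.68 ± 0.19, 1.6-fold, adjusted p = 0.00694). ES cells read 9.84, 9.97 and 9.97 and then 10.39, 9.76 and 9.65 (0.01 ± 0.19, adjusted p = 0.982), and ST8 read 9.82, 9.88 and 9.98 and then 9.83, 10.70 and 9.96 (0.27 ± 0.19, adjusted p = 0.307). In each of these lines 1 day 5 array was above every day 0 array and the other 2 were within or below the day 0 range. With both of those arrays left out, Sparc was -0.22 in ES cells (adjusted p = 0.0276) and -0.0037 in ST8 (adjusted p = 0.978). Here too the arrays left out were picked after the values were seen, which lowers the difference by choice of arrays. Parietal endoderm markers moved over the same days. In ES cells 7 of 12 rose and 0 fell, beside 18.9% and 19.7% of all genes. In ST5 8 rose and 2 fell (23.2% and 24.8%), and in ST8 7 rose and 1 fell (21% and 19.5%). Pth1r, a hormone receptor of that tissue, read 7.98 to 8.40 on the 5 arrays with high Sox17 and 6.80 to 6.96 on the other 4. Of the defining markers, Thbd read 5.10 to 5.52 at day 0 and 4.47 to 5.68 at day 5, and Sox7 read 5.10 to 5.60 and 4.97 to 5.34. The part of these cells in the result was not tested.

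**Figure D2:**
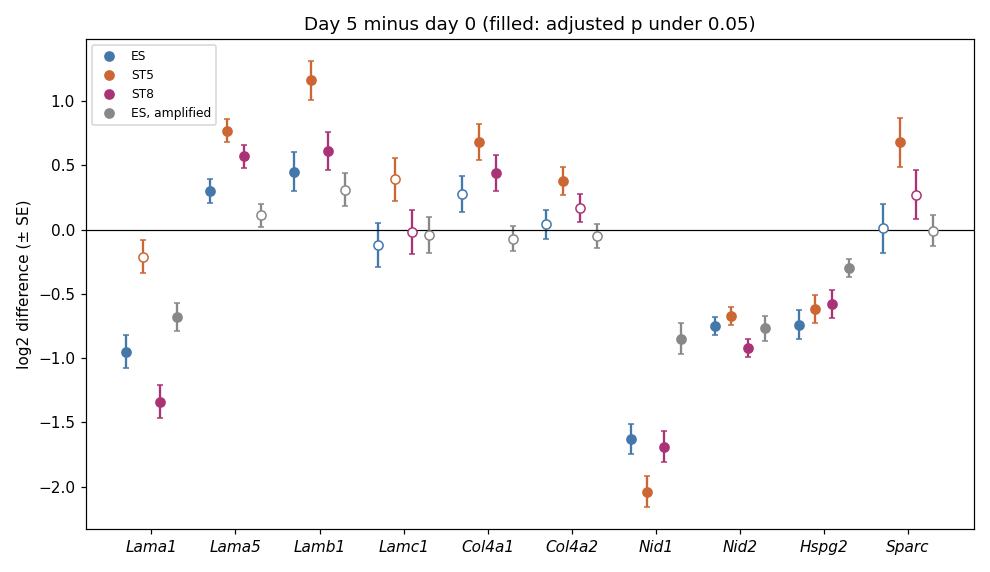
Difference of day 5 minus day 0 (log2, ± SE) of the 10 genes in ES cells, ST5 and ST8 on the unamplified arrays, and in ES cells on the amplified arrays. Filled points passed an adjusted p of 0.05. On the unamplified arrays Nid1, Nid2 and Hspg2 are filled below 0 in all 3 lines, and Lama5 and Lamb1 filled above 0 in all 3. Lama1 is filled below 0 in ES cells and ST8 and open in ST5. In the amplified series Lama5 and Lamb1 are open.

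Before differentiation the lines differed little in these genes. Lama5 was lower in the iPS clones (mean of both minus ES -0.30 ± 0.08, adjusted p = 0.0452), with ES arrays at 9.04 to 9.14, ST5 at 8.65 to 8.77 and ST8 at 8.83 to 8.91. Hspg2 was lower by 1.34-fold (-0.42 ± 0.09, adjusted p = 0.0155), with ES at 8.44 to 8.59, ST5 at 7.92 to 8.06 and ST8 at 8.18 to 8.35. For both genes every iPS array was below every ES array, but the Lama5 call was lost when any 1 array was left out (adjusted p 0.0573 to 0.183) and the Hspg2 call where either of 2 ES arrays was (replicate 1, adjusted p = 0.0824; replicate 3, adjusted p = 0.0879). No gene of the 10 was higher and 2 were lower, beside 2.25% and 2.62% of all genes. Between the clones at day 0 none passed limma's test, where 0.0652% of all genes did in either direction, and the differences ran from -0.06 ± 0.19 for Sparc to 0.28 ± 0.11 for Hspg2, whose 95% interval was 0.05 to 0.52. At an unadjusted p under 0.05 there were 2, Nid2 and Hspg2, both higher in ST8.

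At day 5 ST5 endoderm stood apart from ES endoderm in 5 of the 10 genes. Lama1 was 1.65-fold higher in ST5 (0.72 ± 0.13, adjusted p = 0.00171), Lamb1 1.51-fold (0.60 ± 0.15, adjusted p = 0.013) and Sparc 1.62-fold (0.69 ± 0.19, adjusted p = 0.0168). Nid1 was lower (-0.38 ± 0.12, adjusted p = 0.0268), as was Hspg2 (-0.44 ± 0.11, adjusted p = 0.0104). Both Nid1 means, 5.44 in ST5 and 5.82 in ES cells, lay under the dim-gene cut of 5.96. Among all genes 11.6% were higher and 11.8% lower. In the same comparison 10 of 18 fibroblast markers were lower in ST5 and 0 higher, and 7 of 12 visceral endoderm markers were higher and 0 lower; their part in the result was not tested. The ES mean includes replicate 1, which read like ST5: without it Lamc1 (0.69, adjusted p = 0.00254), Col4a1 (0.51, adjusted p = 0.00935) and Col4a2 (0.37, adjusted p = 0.0181) also passed, from 0.47, 0.37 and 0.26 with it, and Nid1 (-0.35, adjusted p = 0.0522) no longer did. With ES day 5 replicate 2 left out instead, Lama1 passed and the other 4 did not, and without replicate 3 Lama1 and Nid1 passed. Without ST5 day 5 replicate 1, Lama1, Lamb1 and Hspg2 passed.

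ST8 endoderm did not pass against ES endoderm in any of the 10 genes, where 0.958% of all genes did in limma's fit, and 0 had an unadjusted p under 0.05. The differences ran from -0.22 ± 0.13 for Lama1 (95% interval -0.49 to 0.06) to 0.23 ± 0.19 for Sparc (-0.18 to 0.63). Each of these 2 groups holds 1 of the split arrays, and no gene of the 10 passed with either or both of them left out. Between the clones, Lama1 was 1.92-fold lower in ST8 (-0.94 ± 0.13, adjusted p = 6.34e-04) and Nid1 1.39-fold higher (0.48 ± 0.12, adjusted p = 0.0148), beside 6.3% of all genes lower and 8.29% higher. Both Nid1 means (5.92 in ST8 and 5.44 in ST5) lay under the dim-gene cut of 5.96, as did that of Lama1 in ST8 (5.73). All 3 ST8 arrays of Lama1, ST8 replicate 2 included, were below all 3 ST5 arrays, although replicate 2 was the highest of the ST8 arrays. Without ST8 replicate 2, 8 of the 10 genes passed in this comparison, among them Lamb1 (-0.65, adjusted p = 7.2e-04, from -0.44 with it), Sparc (-0.74, adjusted p = 0.00145, from -0.47) and Hspg2 (0.45, adjusted p = 0.00285, from 0.33). The shares of all genes above belong to the fit with all arrays, and those without this array were not counted. When only the 2 groups were fitted, neither Lama1 (adjusted p = 0.067) nor Nid1 (adjusted p = 0.138) passed, and Nid1 also failed without ST5 replicate 1 (adjusted p = 0.0709), ST8 replicate 1 (adjusted p = 0.089) or ST8 replicate 3 (adjusted p = 0.0732).

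The responses of the lines were then set against each other. The mean response of both clones minus that of ES cells passed for none of the 10, where 2.14% of all genes passed, and the nearest was Lama5 (0.38 ± 0.11, adjusted p = 0.0986). At an unadjusted p under 0.05 there were 2, Lama5 and Lamb1. Without ES day 5 replicate 1, 3 passed: Lamb1, Lama5 (0.47, adjusted p = 0.0171) and Sparc (0.69, adjusted p = 0.047, from 0.46 ± 0.23 with it). In ST8 against ST5, Lama1 alone passed, where 2.17% of all genes did. Lamb1 gave -0.55 ± 0.22 (adjusted p = 0.168). Without ST8 day 5 replicate 2 Lamb1 gave -0.77 (adjusted p = 0.00403), and 5 of the 10 passed (Lama1, Lamb1, Lamc1, Col4a2 and Sparc). Both shares of all genes belong to the fit with all arrays and were not counted for the fits without an array.

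**Figure D3:**
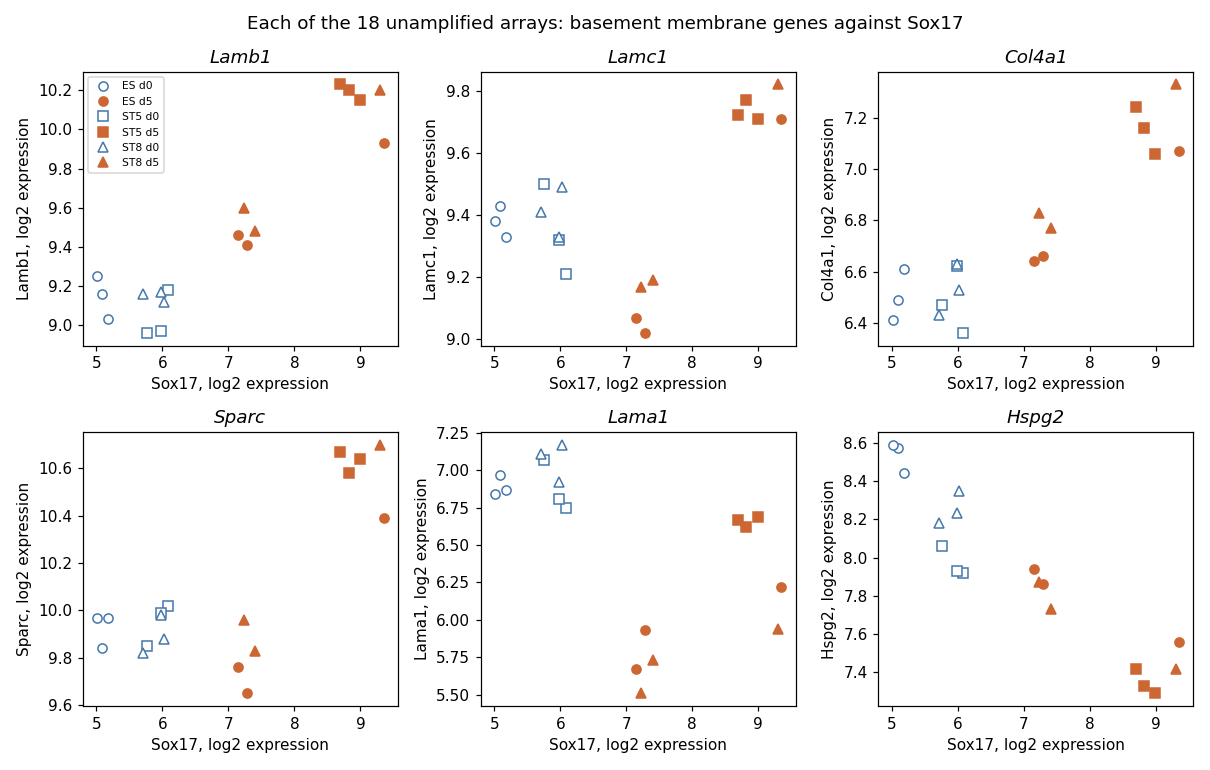
Levels of basement membrane genes (log2 expression, vertical axes) against the level of Sox17 (log2 expression, horizontal axes) on the 18 unamplified arrays; open points are day 0 and filled points day 5. At day 5 the 5 arrays with Sox17 at 8.69 to 9.35 also carry high Lamb1 (9.93 to 10.23), and the 4 arrays with Sox17 at 7.15 to 7.40 carry Lamb1 at 9.41 to 9.60.

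Among themselves the 10 genes formed no single block. Over the 18 unamplified arrays Lamb1 had a Pearson r of 0.90 with Lama5, 0.93 with Col4a1 and 0.86 with Sparc, and of -0.88 with Nid1. Nid1 and Nid2 had 0.96, and Nid1 and Hspg2 0.85, while Lama1 had -0.41 with Lamb1 and 0.82 with Nid2. Over the 12 amplified arrays the order changed: Nid1 and Nid2 had 0.16, and Lama1 had 0.89 with both collagen chains. These values describe arrays that share lines and days. By the same measure, other genes were set against the mean of the 10, which mixes genes that moved in opposite directions. Those most like this mean were Lima1 (0.927), Slc23a1 (0.921), Ppm1j (0.900), Kcnk5 (0.886) and Pdlim1 (0.881), over 18 arrays and 2198 genes with an SD of at least 0.5. Those most like Col4a1 were Hkdc1 (0.969), Ambp (0.966) and Myocd (0.966). Over the 12 amplified arrays and 1626 genes they were Tbx3 (0.981), Mboat1 (0.925), Oat (0.921), Vnn1 (0.919) and Trf (0.917) for the mean, and Tram2 (0.974), Vnn1 (0.974) and Sh3bgrl2 (0.965) for Col4a1.

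On the amplified ES arrays Lama1, Nid1, Nid2 and Hspg2 were lower at day 5, and no gene passed as higher with all arrays in. Lama1 read 6.44, 6.33 and 6.28 at day 0 and 5.84, 5.43 and 5.75 at day 5 (-0.68 ± 0.11, adjusted p = 4.54e-04), and Nid1 6.53, 6.46 and 6.59 and then 5.63, 5.71 and 5.70 (-0.85 ± 0.12, adjusted p = 2.15e-04). Nid2 fell from 8.38, 8.20 and 8.24 to 7.37, 7.60 and 7.52 (-0.77 ± 0.10, adjusted p = 7.06e-05) and Hspg2 from 6.70, 6.70 and 6.68 to 6.36, 6.43 and 6.39 (-0.30 ± 0.07, adjusted p = 0.00629). Thus 0 of the 10 rose and 4 fell, beside 13% and 13.8% of all genes in limma's fit; at an unadjusted p under 0.05, 1 (Lamb1) was higher and 4 were lower. Lamb1 read 8.28, 8.15 and 8.16 and then 8.85, 8.40 and 8.27 (0.31 ± 0.13, adjusted p = 0.107), with replicate 1 of day 5 again on top, as it was for Lama5, Lamc1, Col4a1, Col4a2 and Sparc. Without ES day 5 amplified replicate 3, Lamb1 passed as higher (0.43, adjusted p = 0.0335). Of the 18 fibroblast markers 11 fell and 1 rose on these arrays, and their summed linear level was 1668 to 1869 at day 0 and 1020 to 1276 at day 5; their part in the 4 falls was not tested. Arrays of ES day 5 with the same number deviated together in the 2 labellings (r of 0.29 to 0.65 over genes), so the amplified arrays may hold the same cells and are not counted as independent of the unamplified ones.

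**Figure D4:**
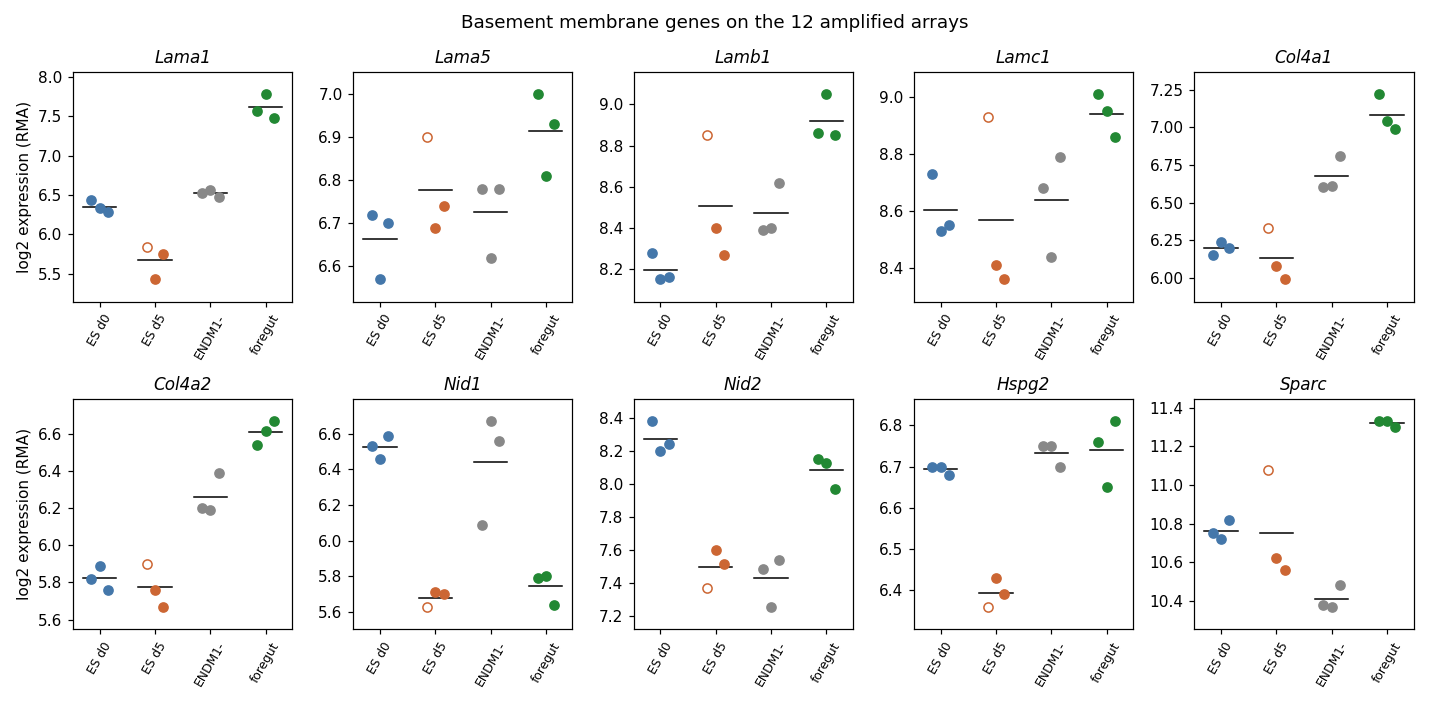
Levels of the 10 genes (log2 expression, RMA) on the 12 amplified arrays, 1 panel a gene with its own axis, points for arrays and lines for group means; the open circle is ES day 5 replicate 1. Foregut arrays are the highest of all in the panels of Lama1, Col4a1, Col4a2 and Sparc, and for Nid1 they lie at 5.64 to 5.80, beside ES day 5.

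In the embryo, foregut cells carried more Lama1, Sparc, Nid2 and type IV collagen RNA than the Epcam-positive cells without ENDM1, and less Nid1. Lama1 read 7.57, 7.78 and 7.48 in foregut and 6.53, 6.56 and 6.48 in ENDM1-negative cells, 2.12-fold higher (1.08 ± 0.11, adjusted p = 7.98e-05). Sparc read 11.33, 11.33 and 11.30 against 10.38, 10.37 and 10.48 (0.91 ± 0.12, 1.88-fold, adjusted p = 4.12e-04). Nid2 read 8.15, 8.13 and 7.97 against 7.49, 7.26 and 7.54 (0.65 ± 0.10, adjusted p = 0.00148). The 2 nidogens went opposite ways: Nid1 read 5.79, 5.80 and 5.64 against 6.09, 6.67 and 6.56, 1.62-fold lower (-0.69 ± 0.12, adjusted p = 0.00424). Its foregut mean of 5.74 lay under the dim-gene cut of 5.89. In none of these 4 genes did the groups overlap, and the share of all genes without overlap was not counted. Of the 10, 5 were higher and 1 was lower, beside 3.71% and 4.43% of all genes, and their median difference was 0.38, beside 0.01 over all genes.

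Both collagen chains were higher in foregut by smaller steps. Col4a1 read 7.22, 7.04 and 6.99 against 6.60, 6.61 and 6.81 (0.41 ± 0.10, adjusted p = 0.0284), and Col4a2 6.54, 6.62 and 6.67 against 6.20, 6.19 and 6.39 (0.35 ± 0.09, adjusted p = 0.0267). ENDM1-negative replicate 3 was the nearest to foregut for both. The Col4a1 call was lost in 4 of the 6 fits that left out 1 of these arrays (without foregut replicate 1 or 2 or ENDM1-negative replicate 1 or 2, adjusted p 0.0574 to 0.118). The Col4a2 call was lost in 4 as well (without foregut replicate 2 or 3 or ENDM1-negative replicate 1 or 2, adjusted p 0.0696 to 0.0945). Lamb1, at 8.86, 9.05 and 8.85 against 8.39, 8.40 and 8.62, did not pass (0.45 ± 0.13, adjusted p = 0.0549). It passed with only the compared groups fitted (adjusted p = 0.0256), after a further quantile normalization (0.49, adjusted p = 0.0324), without dim genes (adjusted p = 0.0356) and where the spread was estimated robustly with a trend over intensity (adjusted p = 0.0337). Lamc1 (0.30 ± 0.14, adjusted p = 0.228) and Lama5 (0.18 ± 0.09, adjusted p = 0.242) did not pass. Every foregut array of either gene was above every ENDM1-negative array, a description with no test of its own. Hspg2 did not pass, at 0.01 ± 0.07, with a 95% interval of -0.14 to 0.16. In ES cells the day 5 falls of Hspg2 and Nid1 were smaller on amplified arrays (-0.30 and -0.85) than on unamplified ones (-0.74 and -1.63). That of Nid2 was not (-0.77 and -0.75). A difference that did not pass here is therefore not shown to be absent.

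Markers of other cell types differed between the 2 embryo fractions, where 3.71% of all genes were higher in foregut and 4.43% lower. Of 12 visceral endoderm markers 11 were higher in foregut, their summed linear level being 4511 to 10121 against 720 to 1229, and Ttr, a secreted carrier protein of the yolk sac and liver, read 11.15 to 11.90 against 7.25 to 8.37. Of 12 parietal endoderm markers 8 were higher (summed level 1831 to 2470 against 1001 to 1057), and the defining genes Thbd and Sox7 read 5.51 to 5.60 and 4.89 to 5.10 in foregut against 5.62 to 6.19 and 4.95 to 5.25. Of 12 endothelial markers 7 were lower in foregut (522 to 551 against 912 to 1318), and Cdh5, a cadherin of blood vessels, read 5.33 to 5.53 against 7.86 to 8.50. The part of these cells in the basement membrane results was not tested.

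Against ES endoderm of day 5, which shares the foregut arrays with the comparison above, 7 of the 10 genes were higher in foregut and 0 lower, beside 14.7% and 9.42% of all genes in limma's fit. Lama1 stood out at 3.83-fold (1.94 ± 0.11, adjusted p = 2.66e-07), with ES day 5 arrays at 5.84, 5.43 and 5.75. Col4a1 was 1.93-fold higher (0.95 ± 0.10, adjusted p = 4.34e-05; ES day 5 at 6.33, 6.08 and 5.99) and Col4a2 1.79-fold (0.84 ± 0.09, adjusted p = 2.97e-05; ES day 5 at 5.90, 5.76 and 5.67). Nid2 (0.59 ± 0.10, adjusted p = 0.00109), Hspg2 (0.35 ± 0.07, adjusted p = 0.0035) and Sparc (0.56 ± 0.12, adjusted p = 0.00368) were higher as well, and ES replicate 1, the highest ES array for Sparc at 11.08, was still below every foregut array. Lamb1 was higher with overlapping arrays (0.41 ± 0.13, adjusted p = 0.0386), a call that was lost without either lower ES array (adjusted p 0.119 and 0.154), without any foregut array (0.0668 to 0.112) and when only these 2 groups were fitted (adjusted p = 0.0944). Lama5 (0.14 ± 0.09), Lamc1 (0.37 ± 0.14) and Nid1 (0.06 ± 0.12) did not pass; without ES day 5 amplified replicate 1 Lamc1 did (0.55, adjusted p = 0.00309). Visceral endoderm markers were higher in foregut here too, 11 of 12 with a median difference of 1.80, and so were 5 of 12 parietal endoderm markers, with 1 lower. Of 10 definitive endoderm markers 1 was higher and 6 were lower. The part of these markers in the result was not tested. Source, strain and extraction kit differ together between these groups and cannot be told apart.

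**Figure D5:**
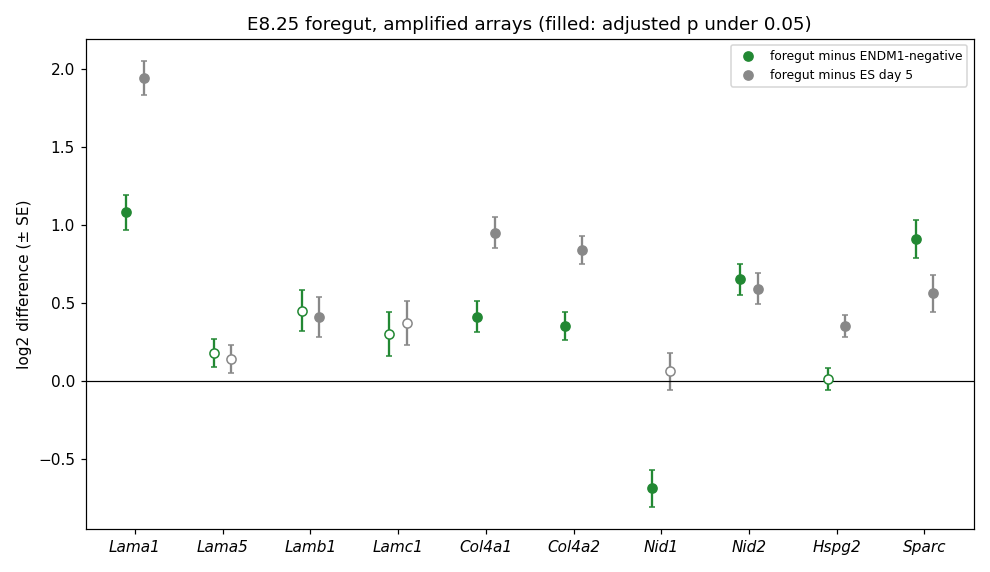
Difference (log2, ± SE) of foregut minus ENDM1-negative cells and of foregut minus ES endoderm of day 5 for the 10 genes on the amplified arrays; filled points passed an adjusted p of 0.05. Lama1 is highest in both, at 1.08 and 1.94, and Nid1 is filled below 0 at -0.69 only against ENDM1-negative cells.

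The other genes of basement membranes were taken from lists by role, whose counts are described beside the shares of all genes given above and were not tested as lists. Of 10 measured further laminin and type IV collagen chains, 1 rose in ES cells and 2 fell (18.9% and 19.7% of all genes), 1 rose in ST5 and 3 fell (23.2% and 24.8%), and in ST8 0 rose and 2 fell (21% and 19.5%). Lama4, an alpha chain of vessels and mesenchyme, fell in all 3 lines (-1.64 ± 0.12, -1.74 ± 0.12 and -1.74 ± 0.12 in ES cells, ST5 and ST8), and so did Lama3, an epithelial alpha chain (-0.39 ± 0.11, -0.64 ± 0.11 and -0.86 ± 0.11). The rises were Lama2 in ES cells (0.42 ± 0.12) and Lamb3 in ST5 (0.98 ± 0.20). No chain of this list passed between foregut and ENDM1-negative cells in limma's fit (3 at an unadjusted p under 0.05), and 4 were higher in foregut than in ES endoderm (14.7% of all genes), led by Col4a6 (0.77 ± 0.11) and Col4a5 (0.58 ± 0.08), the collagen pair that lies head to head on the X chromosome. The median of this list was 0.08, -0.13 and -0.01 in ES cells, ST5 and ST8, near that of all genes (0.02, -0.04 and -0.01).

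Of 20 other basement membrane components, ES cells showed 5 rises and 6 falls, ST5 6 and 6, and ST8 6 and 7, beside the same shares of all genes, and the list medians were 0.06, -0.05 and -0.07. Frem1, a Fraser complex protein, rose by 2.60 ± 0.15, 2.64 ± 0.15 and 2.0 ± 0.15, and Pxdn, the peroxidase that forms bonds between collagen chains, by 2.08 ± 0.27, 3.02 ± 0.27 and 2.10 ± 0.27. Fbln2, a fibulin, fell in all 3 lines (-1.78, -1.20 and -1.70). In foregut against ENDM1-negative cells 7 were higher (3.71% of all genes), led by Egfl6 (1.91 ± 0.20) and fibronectin, Fn1 (1.23 ± 0.09), and 1 lower, nephronectin, Npnt (-0.83 ± 0.17). Against ES endoderm 12 were higher (14.7% of all genes) and 0 lower, led by the Fraser complex genes Frem2 (1.60 ± 0.11) and Fras1 (1.43 ± 0.12).

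Of 17 measured genes of collagen processing, ES cells showed 9 rises and 3 falls, beside 18.9% and 19.7% of all genes. ST5 showed 9 and 4 (23.2% and 24.8%) and ST8 10 and 4 (21% and 19.5%), with list medians of 0.25, 0.31 and 0.23 against 0.02, -0.04 and -0.01 over all genes. Serpinh1, the collagen chaperone of the endoplasmic reticulum, rose by 1.13 ± 0.12, 1.19 ± 0.12 and 1.14 ± 0.12, and P3h2, a prolyl hydroxylase that acts on type IV collagen, by 2.06 ± 0.36, 3.11 ± 0.36 and 2.06 ± 0.36. The largest falls were those of Lox (-4.31, -4.44 and -4.08), the lysyl oxidase of fibrillar collagen, which fibroblasts make; Col1a1 fell on the same arrays, and its part in the fall of Lox was not tested. In foregut 5 were higher than in ENDM1-negative cells (3.71% of all genes) and 0 lower, led by P4ha3 (1.30 ± 0.13) and Plod2 (1.10 ± 0.09), and 13 were higher than in ES endoderm (14.7%).

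Of 18 receptors of basement membranes, ES cells showed 6 rises and 6 falls (18.9% and 19.7% of all genes), ST5 8 and 7 (23.2% and 24.8%), and ST8 9 and 5 (21% and 19.5%), with list medians of -0.01, 0.04 and 0.25. The collagen receptors went opposite ways: Itga1, the alpha chain of a type IV collagen integrin, fell in ES cells, ST5 and ST8 (-1.83, -2.75 and -2.97), as did Ddr2 (-2.01, -2.24 and -2.32), while Ddr1 rose by 0.57 ± 0.09, 1.13 ± 0.09 and 1.39 ± 0.09. Gpc4, a glypican, rose by 1.30 ± 0.32, 1.92 ± 0.32 and 1.44 ± 0.32. In foregut 4 were higher than in ENDM1-negative cells (3.71% of all genes) and 0 lower, led by the laminin receptors Itga3 (0.90 ± 0.12) and Bcam (0.45 ± 0.10). These 2 were also higher than in ES endoderm (1.76 ± 0.12 and 1.32 ± 0.10), where 8 of the list were higher (14.7% of all genes) and 1, Gpc4, was lower (-2.03 ± 0.33).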

How the data were processed

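Affymetrix Mouse Gene 1.0 ST arrays were used; the authors made the log2 levels they deposited with RMA, per the submitters' processing notes; its version, and whether both labellings were processed together, are not given in the sources used here. Of 35556 probe sets, 21789 named 1 gene in the array annotation; for 999 genes with several, the one with the highest mean over the 30 arrays was kept, leaving 19938 genes. limma 3.58.1 in R 4.3.3 was fitted separately to the 18 unamplified arrays (12 residual degrees of freedom) and the 12 amplified arrays (8), with a mean per group, moderated two-sided tests and Benjamini-Hochberg adjustment over all genes. SE and 95% intervals come from these fits. Each gene has 1 spread, pooled over the replicates of all groups of a labelling and moderated over genes. The p-values rest on that spread and not on the compared groups alone. Spreads were unequal between groups: the SD of Lamb1 was 0.04 in ST5 day 5 and 0.39 in ST8 day 5. The script was tested on simulated data.

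The 10 genes, the other lists and the alternatives were chosen with earlier results of these data known. All 10 are named; of each other basement membrane list, up to 2 of the largest called rises and falls per comparison. Promoter windows are RefSeq's (GRCm38.p6). Same-numbered arrays of the compared groups did not deviate together (at least 1 pair had a correlation under 0.1 in every comparison), so no pairing was used. Alternatives were a fit of all arrays or of only the compared groups, quantile normalization, a common median, leaving out dim genes, other probe set choices, robust spread with a trend over intensity, replicate numbers as a block, and leaving out arrays.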

Additional observations from a re-analysis of the deposited data

Results flagged for a closer look

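Lama1 was the gene of the 10 whose response to differentiation differed between 2 lines in a test of the difference itself. The response of ST8 minus that of ST5 was -1.13 ± 0.18 (log2, SE; limma, adjusted p = 0.0106). Day 5 lay below day 0 by 1.34 in ST8 and by 0.21 in ST5, where the difference did not pass. In both clones all 3 day 5 arrays were under all 3 day 0 arrays. The value was -1.24 without ST8 day 5 replicate 2.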

How the results depend on the processing

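The falls of Nid1, Nid2 and Hspg2 in all 3 lines, and of Lama1 in ES cells and ST8, passed under every alternative run, as did the rise of Lamb1 and Lama5 in ST5 and ST8. The tally of single genes covers only differences called in the main fit or listed for the text. Other uncalled differences, and the calls they gained, are left out of it. Of its 1444 alternative values, 1323 kept direction and side of the threshold, 54 lost a call, 39 gained one and 28 changed sign without having been called. The number of the 10 genes called moved as follows, and the cause of the moves was not tested. Shares of all genes called were not counted for the alternatives. For iPS clones against ES cells at day 0 it was 2, 1 with the replicate block and 0 to 1 with an array left out. For the ES day 5 response it was 6, 4 to 6 with an array left out and 8 without both ES day 5 replicate 1 and ST8 day 5 replicate 2, a setting chosen after seeing the data. For foregut it was 6 against ENDM1-negative cells, 4 to 7 over all alternatives, and 7 against ES endoderm, 6 to 8. For ST5 against ES at day 5 it was 5, 7 with all 30 arrays fitted or without dim genes, 4 with quantile normalization or only these groups fitted (Nid1 lost), 1 to 7 with an array left out, and 9 without both arrays. For ST8 against ST5 at day 5 it was 2, 4 without dim genes, 0 with only these groups fitted, 1 to 8 with an array left out and 8 without both arrays. For the responses it went from 0 to 5 (clones against ES) and from 1 to 8 (ST8 against ST5) without both arrays, and to 0 to 3 and 1 to 5 with an array left out. The replicate block changed the calls of Lama5 at day 0 (adjusted p = 0.0688), of Col4a2 in foregut against ENDM1-negative cells (adjusted p = 0.0506) and of Lamb1 in foregut against ES endoderm (adjusted p = 0.0515); Lamc1 passed there with it, and it changed no other call of the 10 genes given in the text. Same-numbered arrays share only a number, and only for ES against ST5 at day 5 did every array correlate best with its own number.

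Only differences that were not called changed sign, and only those in the tally are described here. With a further quantile normalization Lamc1 in ST8 was 0.01, Col4a2 in ES cells -0.04, Nid1 in foregut against ES endoderm -0.01 and Sparc in amplified ES cells 0.04. Sparc in ES cells was -0.03 after a shift to a common median. Without both arrays Col4a2 in ES cells was -0.07, Sparc in ES cells -0.22 and Sparc in ST8 -0.0037. With an array left out, Lamc1 ran from -0.34 to 0.0047 in ES cells, from -0.23 to 0.09 in ST8 and from -0.22 to 0.07 in amplified ES cells. Col4a1 in amplified ES cells ran from -0.17 to 0.01, and Col4a2 from -0.07 to 0.10 in ES cells and from -0.11 to 0.0037 in amplified ES cells. Hspg2 in foregut against ENDM1-negative cells ran from -0.03 to 0.05. Sparc ran from -0.22 to 0.15 in ES cells, from -0.0037 to 0.43 in ST8, from -0.17 to 0.09 in amplified ES cells and from -0.04 to 0.46 in ST8 against ES at day 5.

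Arrays limit precision by their number: SE of single differences were 0.07 to 0.19 for the day 5 responses. No batch is given in the labels.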

Other observations

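Of 14 measured genes that break down the matrix or inhibit its breakdown, 3 rose and 6 fell in ES cells over the 5 days, where 18.9% of all genes rose and 19.7% fell. In ST5 5 rose and 7 fell (23.2% and 24.8% of all genes), and in ST8 3 rose and 5 fell (21% and 19.5%). The list medians were -0.09, -0.35 and -0.12, beside 0.02, -0.04 and -0.01 over all genes, and the list was not tested. Mmp14, a membrane-bound protease of the matrix, rose by 0.98 ± 0.15, 1.28 ± 0.15 and 0.73 ± 0.15 (log2, SE; limma), and Adamts9, a secreted protease of proteoglycans, by 1.30 ± 0.23, 2.04 ± 0.23 and 1.51 ± 0.23. Timp1, an inhibitor of such proteases, fell in all 3 lines (-2.93, -3.54 and -2.61), over the days on which the fibroblast marker Col1a1 fell as well. In foregut against ENDM1-negative cells 5 were higher (3.71% of all genes), among them Plat, the tissue plasminogen activator (1.18 ± 0.09), and Timp2 (0.84 ± 0.11), and 1, the secreted protease Htra1, was lower (-1.87 ± 0.32).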
